A study of Rattus norvegicus with 9 samples.

Results

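Prostanoids are signalling lipids made from arachidonic acid, and the data here describe the messenger RNA of 10 genes that make or sense them: Ptgs1, Ptgs2, Ptgis, Ptges, Tbxas1, Ptgir, Ptger2, Ptger3, Ptger4 and Tbxa2r. The genes were chosen by name, as every non-control probe annotated to one of them, which gave 11 of 41012 probes. Of the 10 genes, 7 had a probe bright enough for testing, among 22106 genes tested in all. The cells, cultured to generation 4 from male Sprague Dawley rats, were PASMCs: smooth muscle cells of the pulmonary artery, which set the tone of its wall. There were 3 groups of 3 samples, each hybridised to its own 1-colour Agilent rat array: normoxia, hypoxia, and hypoxia+quercetin, the last treated with the plant flavonol quercetin while hypoxic. Hypoxia was 1% oxygen with 5% CO2 in an airtight chamber, and controls stayed in a normoxic incubator at 37 °C. All cells went without serum for 24 h and were then treated for 24 h in medium with 10% serum, with quercetin or with 0.1% DMSO. The quercetin dose and whether the 3 samples of a group came from separate rats or cultures are not given in the sources used here, so each p-value reflects no more than the scatter among these samples, which may be technical.

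The cyclooxygenases, encoded by Ptgs1 and Ptgs2, turn arachidonic acid into prostaglandin H2, the common precursor. Terminal synthases then make prostacyclin (Ptgis), prostaglandin E2 (Ptges) or thromboxane A2 (Tbxas1). In lung arteries prostacyclin relaxes smooth muscle through the receptor IP (Ptgir) and cyclic AMP, while thromboxane contracts it through the receptor TP (Tbxa2r). Prostaglandin E2 acts through a family of receptors, of which EP2 (Ptger2) and EP4 (Ptger4) raise cyclic AMP and EP3 (Ptger3) lowers it.

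What an array reads is the binding of labelled RNA to one short probe, and a probe of each of 5 members is shown. The statements on Ptgis, Ptgir, Tbxa2r and Ptger3 rest on these probes. Those on Ptgs2 rest mainly on a brighter probe that is not shown. Each printed probe is 60 bases, given 5′ to 3′ as deposited, with rat genome build rn4 positions.
Ptgis, chr3:158360438-158360497, minus strand: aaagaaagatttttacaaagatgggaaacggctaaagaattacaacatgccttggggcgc
Ptgir, chr1:77236592-77236651, plus strand: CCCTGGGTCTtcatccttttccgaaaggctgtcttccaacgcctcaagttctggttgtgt
Tbxa2r, chr7:9868333-9868392, minus strand: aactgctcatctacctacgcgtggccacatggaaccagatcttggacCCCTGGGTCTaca
Ptger3, chr2:255681594-255719705, plus strand: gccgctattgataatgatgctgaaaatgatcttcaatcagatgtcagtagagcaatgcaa
Ptgs2 (dimmer probe), chr13:64430899-64431083, plus strand: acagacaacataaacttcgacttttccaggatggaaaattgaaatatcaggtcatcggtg
Capitals mark the longest run shared by the Ptgir and Tbxa2r probes, 10 bases.  The Ptger3 probe covers 38112 bases of the genome and the Ptgs2 one 185, so both cross a splice junction.

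Signals are log2 values relative to the 75th percentile of their own array, so 0 is the level of a fairly bright probe. They compare 1 probe between arrays and never 2 genes. Each change is one group mean minus another ± its standard error (3 arrays a group), and each adjusted p is from limma, Benjamini-Hochberg adjusted over all 22106 genes. Much of the transcriptome differed between the groups. In hypoxia against normoxia 64.2% of all genes passed, with quercetin against hypoxia 58.4% and with quercetin against normoxia 44.3%. The members' shares, 4 of 7, 5 of 7 and 4 of 7, are close to those figures and are no result about the pathway. Of the genes that passed, 55% were higher in hypoxia than in normoxia and 51.9% were higher with quercetin than in normoxia; scaled to spike-in RNA these were 19.8% and 14.3%, as that scaling moves the median gene from 0.10 to -0.40 and from 0.04 to -0.37. Slide 1 held normoxia samples 1 and 2, slide 2 normoxia 3 with the hypoxia samples, and slide 3 the quercetin samples, so slide and quercetin treatment cannot be told apart. The hypoxia-normoxia value within slide 2 is given beside the pooled one; it sets the hypoxia arrays against normoxia 3 alone, and its p assumes that this lone array varies like the others, whose spread it takes. The share of probes well above background was 53% on hypoxia 3 and 53.9% on quercetin 1, against 64.1% to 74.3% on the other arrays.

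The clearest pattern was in Ptgis, prostacyclin synthase, which rose in hypoxia and fell with quercetin to below the normoxic level. Its signals were 1.59, 1.82 and 1.63 in normoxia, 2.78, 2.68 and 2.70 in hypoxia, and 0.89, 0.68 and 0.78 with quercetin. The groups lay fully apart in the order hypoxia, normoxia, quercetin, with at most 0.12 (SD, n = 3) inside a group. Hypoxia against normoxia came to 1.04 ± 0.10, a 2.05-fold rise (adjusted p = 4.01e-05), and to 1.08 within slide 2 (adjusted p = 0.00468). Quercetin against hypoxia came to -1.93 ± 0.10, a 3.82-fold fall (adjusted p = 4.23e-06). Against normoxia the quercetin-treated cells were still lower, by -0.90 ± 0.10 (adjusted p = 0.000191). Scaled to spike-in RNA instead of the array's own percentile, the hypoxic rise of Ptgis was 0.53 (adjusted p = 0.00726).

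Ptges, the inducible prostaglandin E synthase, followed the same course up and down. Its signals were 0.78, 1.12 and 0.12 in normoxia, 2.23, 2.25 and 2.27 in hypoxia, and -0.10, 0.63 and 0.12 with quercetin. All 3 hypoxia arrays exceeded the other 6, while the normoxia and quercetin arrays overlapped. The rise was 1.58 ± 0.26, or 2.99-fold (adjusted p = 0.000975), and 2.13 within slide 2 (adjusted p = 0.002). With quercetin Ptges was 4.1-fold lower than in hypoxia (-2.03 ± 0.26, adjusted p = 0.000294). Quercetin against normoxia, at -0.45 ± 0.26, missed the threshold (adjusted p = 0.197), with a 95% interval of -1.05 to 0.15, and passed without normoxia 3 (-0.73, adjusted p = 0.0266) and when scaled to spike-in RNA (-0.86, adjusted p = 0.0178).

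**Figure D1:**
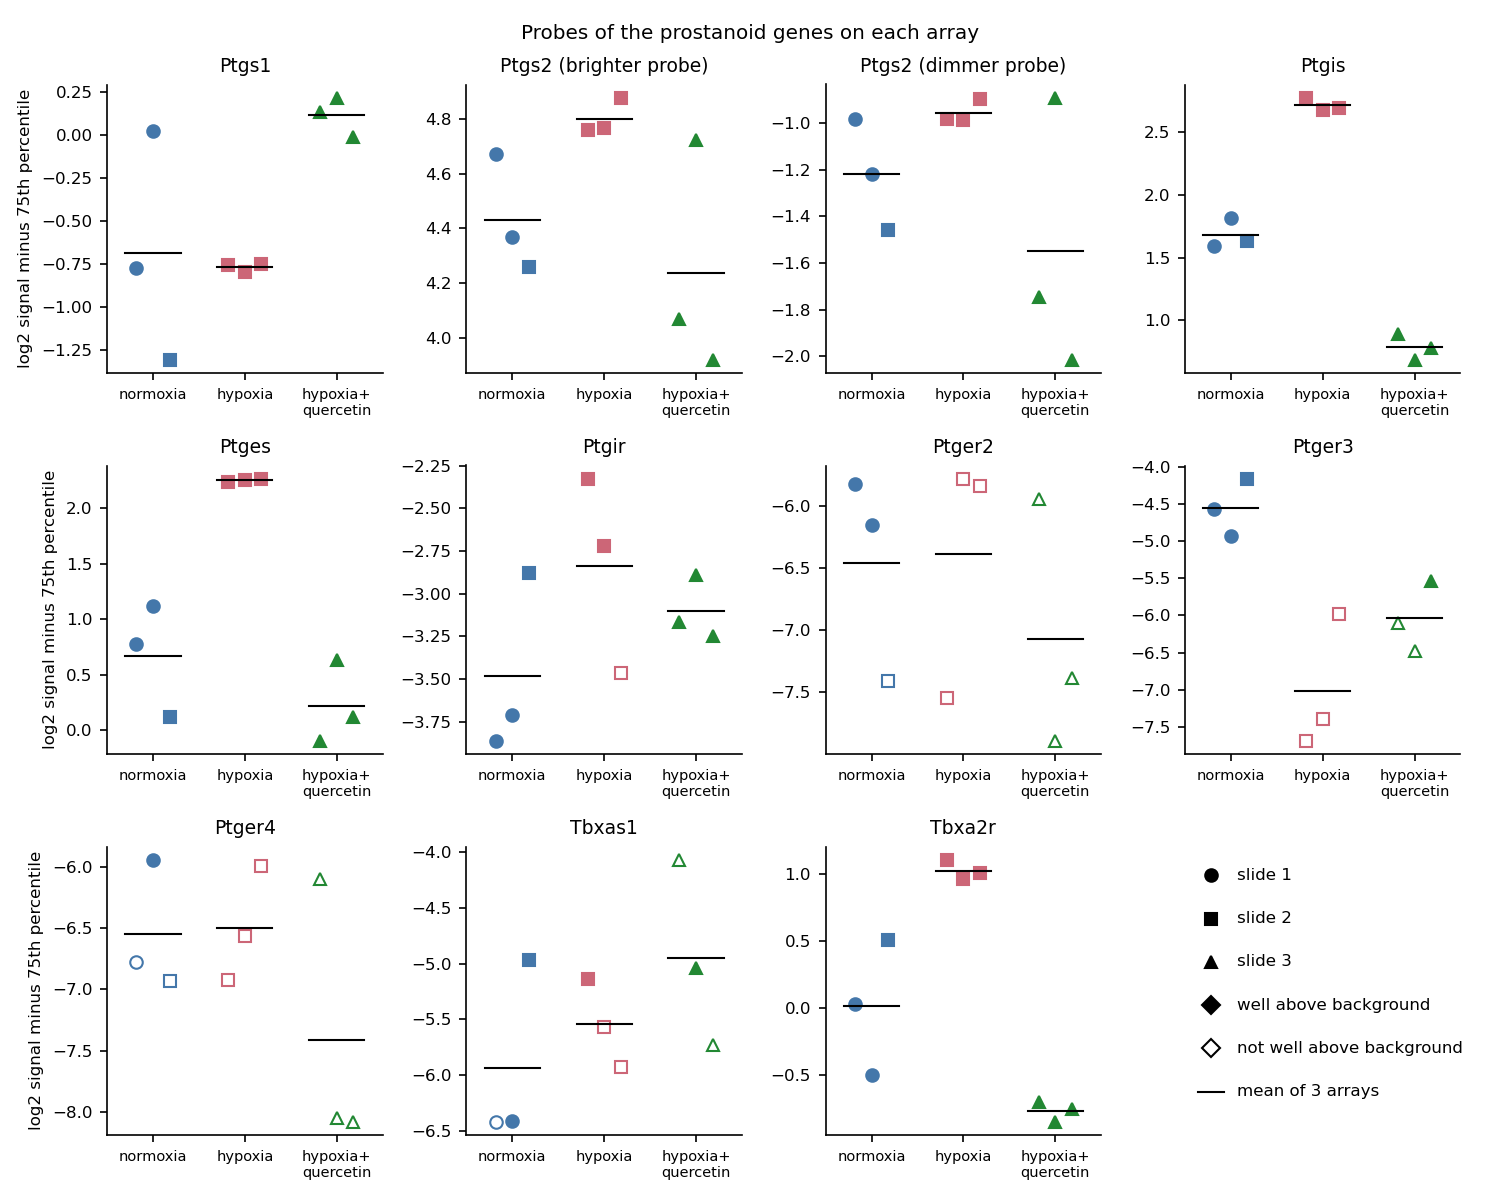
Signal of each of the 11 member probes on each array (log2, relative to the array's 75th percentile; the vertical scale differs between panels), by group, with the slide as the symbol and open symbols for arrays where the probe was not well above background. Ptgis, Ptges and Tbxa2r have all 3 hypoxia arrays on top, and the probes of Ptger2, Ptger4 and Tbxas1 are mostly open.

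The cyclooxygenases that feed these synthases moved less, and with quercetin against hypoxia their calls, both narrow, went in opposite directions. Ptgs2, the inducible enzyme, read 4.67, 4.37 and 4.26 in normoxia, 4.76, 4.76 and 4.88 in hypoxia, and 4.07, 4.72 and 3.92 with quercetin. The hypoxia arrays sat just above all others, and quercetin sample 2 stood apart above the other two of its group. In hypoxia against normoxia the difference of 0.37 ± 0.20 missed the threshold (adjusted p = 0.146) although the arrays did not overlap. Scaled to spike-in RNA it was -0.14, and within slide 2 it was 0.54 (adjusted p = 0.0429). Before scaling, the intensity was 11200 to 15230 in normoxia and 11120 to 12020 in hypoxia.

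With quercetin Ptgs2 fell 1.48-fold against hypoxia (-0.56 ± 0.20, adjusted p = 0.0427). That call was narrow: the adjusted p rose to 0.202 after quantile normalization, and leaving out single arrays gave changes from -0.80 to -0.40 with adjusted p from 0.00208 to 0.143. Leaving out quercetin sample 2 gave the -0.80, and hypoxia against normoxia then passed at an unchanged 0.37 (adjusted p = 0.0301). The dimmer Ptgs2 probe, printed above, had the same array order within the quercetin group (-1.74, -0.89 and -2.01) and a change of -0.59 ± 0.26 (adjusted p = 0.0822). Each of the 10 spots of the brighter probe repeats the reading on an array. Their SD was 0.034 to 0.082, so spot noise was smaller than the SD of 0.43 among the quercetin samples.

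Ptgs1, the constitutive cyclooxygenase, was higher with quercetin and did not pass in hypoxia. It read -0.78, 0.03 and -1.31 in normoxia, -0.75, -0.80 and -0.75 in hypoxia, and 0.14, 0.22 and -0.01 with quercetin. The normoxia arrays spread widely and enclosed the hypoxia arrays, and the quercetin arrays lay above all hypoxia arrays. Hypoxia against normoxia was -0.08 ± 0.28 (adjusted p = 0.818, 95% interval -0.73 to 0.57), and 0.54 within slide 2 (adjusted p = 0.212). Quercetin against hypoxia was 0.88 ± 0.28, a 1.84-fold rise (adjusted p = 0.0259), and 5 of the 9 fits without 1 array put its adjusted p above the threshold, at most at 0.0726. The 0.80 ± 0.28 against normoxia passed narrowly (adjusted p = 0.0477) with overlapping arrays, and the call was lost in 8 of the 9 fits that left out 1 array, all but the one without normoxia 2 (adjusted p up to 0.118). The value without normoxia 3 was 0.49.

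Tbxas1, thromboxane synthase, was not tested. Its probe was well above background on 4 of 9 arrays, with signals of -6.42, -6.41 and -4.97 in normoxia, -5.14, -5.57 and -5.93 in hypoxia, and -4.07, -5.04 and -5.73 with quercetin. The groups overlapped, and no direction can be read from them.

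Of the receptors for thromboxane and prostacyclin, the first passed in all 3 comparisons and the second in none. The within-array test of their difference, given further on, cannot reach 0.05. Its smallest p for 3 against 3 arrays is 0.1, so it cannot decide whether the receptors changed unequally. Tbxa2r, the thromboxane receptor, read 0.03, -0.50 and 0.51 in normoxia, 1.11, 0.97 and 1.01 in hypoxia, and -0.70, -0.85 and -0.75 with quercetin. The 3 groups did not overlap. The rise in hypoxia was 1.01 ± 0.22, or 2.02-fold (adjusted p = 0.00373). It was 0.52 within slide 2 (adjusted p = 0.119) and 0.51 when scaled to spike-in RNA (adjusted p = 0.0715), and neither passed. With quercetin it fell 3.47-fold against hypoxia (-1.79 ± 0.22, adjusted p = 0.000209) and 1.72-fold against normoxia (-0.78 ± 0.22, adjusted p = 0.0192). The last call was lost without normoxia 1, quercetin 2 or quercetin 3 (adjusted p from 0.0517 to 0.0555).

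Ptgir, the prostacyclin receptor, passed in no comparison. Its signals were -3.86, -3.71 and -2.88 in normoxia, -2.33, -2.72 and -3.46 in hypoxia, and -3.16, -2.89 and -3.25 with quercetin. The groups overlapped throughout, and on hypoxia 3 the probe was not well above background. The differences were 0.65 ± 0.33 in hypoxia (adjusted p = 0.117), -0.26 ± 0.33 with quercetin against hypoxia (adjusted p = 0.516) and 0.38 ± 0.33 against normoxia (adjusted p = 0.385). Without hypoxia 3 the hypoxic difference was 0.96 (adjusted p = 0.0256), without normoxia 3 it was 0.95 (adjusted p = 0.027), and within slide 2 it was 0.04.

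Ptger3, the EP3 receptor, was well above background on all 3 arrays in normoxia alone among the groups. It read -4.56, -4.93 and -4.15 there, -7.69, -7.40 and -5.97 in hypoxia, where no array was well above background, and -6.10, -6.47 and -5.54 with quercetin, where 1 array was. The hypoxic level has only an upper bound, so the fall was at least 1.16-fold. The floor used on each dim array is the lowest signal of any probe well above background there. The adjusted p of 0.00157 is limma's for the difference without that bound (-2.48 ± 0.45), and the bound itself was not tested. The probe entered the test through normoxia alone, the group where it is high, which favours a fall, so its p is no independent support. With normexp background correction the difference was -0.47 (adjusted p = 0.536). With 1 of 3 quercetin arrays well above background, the other differences are no measure of size. Quercetin against normoxia was lower (adjusted p = 0.0263), but the value turned to 0.05 under that correction and the call was lost without normoxia 1 or 3 or quercetin 1 or 2 (adjusted p up to 0.0854). Quercetin against hypoxia missed the threshold (adjusted p = 0.09). It passed without hypoxia 3 (adjusted p = 0.00533).

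Ptger2 and Ptger4, the receptors coupled to cyclic AMP, were not tested. The Ptger2 probe was well above background on 2 arrays, both normoxic, and the Ptger4 probe on 1 normoxic array. Another probe carries the name TC578855 in the file and a description as an EP2-type receptor; it is no member by the rule used. It was well above background on all 3 normoxia arrays (-3.76, -3.86 and -4.52) and on none of the other 6 (-7.95 to -5.86). That is at least 1.65-fold lower in hypoxia and at least 2.14-fold lower with quercetin against normoxia, for a probe that likewise entered the test through normoxia alone. The adjusted p-values, 0.00436 and 0.00215, are for its differences without these bounds.

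**Figure D2:**
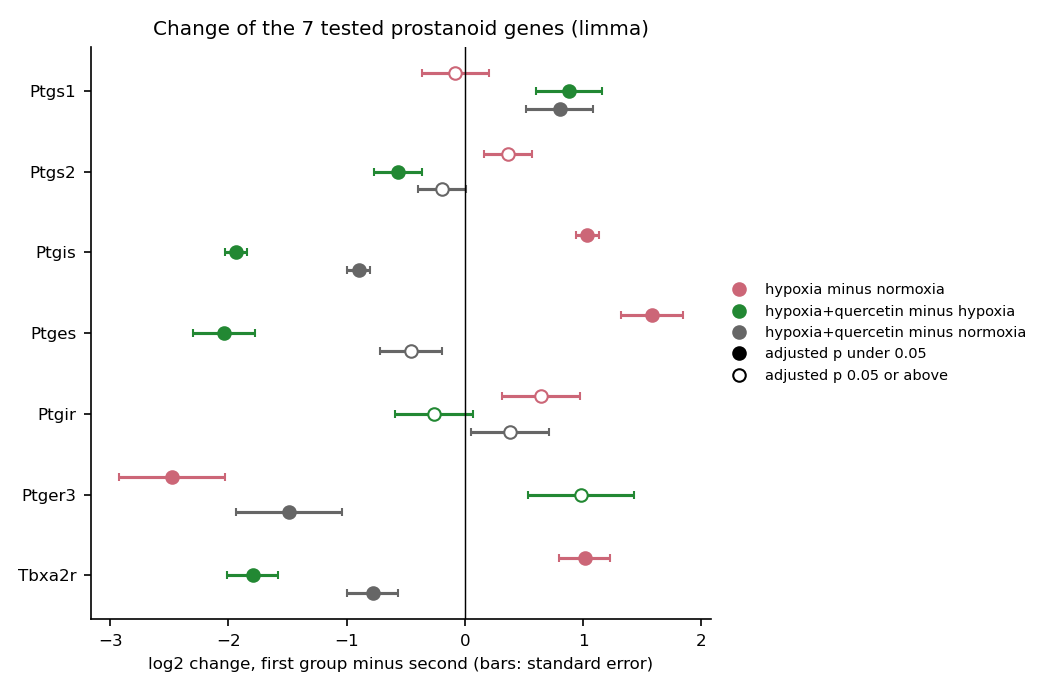
Log2 change ± standard error of the 7 tested members in the 3 comparisons (3 arrays per group; filled, adjusted p under 0.05). Ptgis, Ptges and Tbxa2r lie between 1.01 and 1.58 in hypoxia and between -2.03 and -1.79 with quercetin, while Ptgs1 is the only member that passed upward with quercetin; for the dim Ptger3 the position is no measure of size.

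The arrays of the groups did not overlap for 5, 5 and 3 of the 7 members in the 3 comparisons, against 71.7%, 71.1% and 53.6% of all genes. By count, 3 of the 7 were higher in hypoxia (Ptgis, Ptges, Tbxa2r), against 35.3% of all genes, and 1 was lower (Ptger3), against 28.9%. The members' median was 0.65, beside 0.10 over all genes. Quercetin against hypoxia raised 1 (Ptgs1), against 26.9%, and lowered 4 (Ptgs2, Ptgis, Ptges, Tbxa2r), against 31.6%, with a median of -0.56 beside -0.08. Quercetin against normoxia raised 1 (Ptgs1), against 23%, and lowered 3 (Ptgis, Ptger3, Tbxa2r), against 21.3%. Ptger3 entered the test through normoxia alone, which favours a fall in both comparisons with normoxia. The comparisons share arrays, so a rise in hypoxia and a fall with quercetin are not independent readings of the hypoxia samples.

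Differences taken within an array do not depend on how it was scaled, and 3 pairs of members could be followed this way. Ptgs2 over Ptgs1 fell by 1.45 (log2) with quercetin against hypoxia, from 5.51, 5.56 and 5.63 to 3.93, 4.50 and 3.93. Ptgir over Tbxa2r rose by 1.53, from -3.44, -3.69 and -4.47 to -2.47, -2.04 and -2.50. It came with a fall of Tbxa2r (-1.79), while Ptgir itself did not pass (-0.26, limma adjusted p = 0.516). The lowest value, -4.47, is from hypoxia 3, where the Ptgir probe was not well above background. The same pair was 1.16 higher with quercetin than in normoxia, again without overlap. Ptgis over Ptges was lower in hypoxia than in normoxia by 0.55, from 0.815, 0.701 and 1.517 to 0.546, 0.422 and 0.43. By these means Ptges rose more than Ptgis, with normoxia 3 (1.517) furthest from the hypoxia arrays. Each of these 4 pair differences gave p = 0.1 in an exact two-sided permutation test. That is the smallest p that 3 against 3 allows, so none could pass. It became 0.225 after Benjamini-Hochberg adjustment over 9 tests. The other 5 overlapped, with exact p from 0.2 to 0.7.

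**Figure D3:**
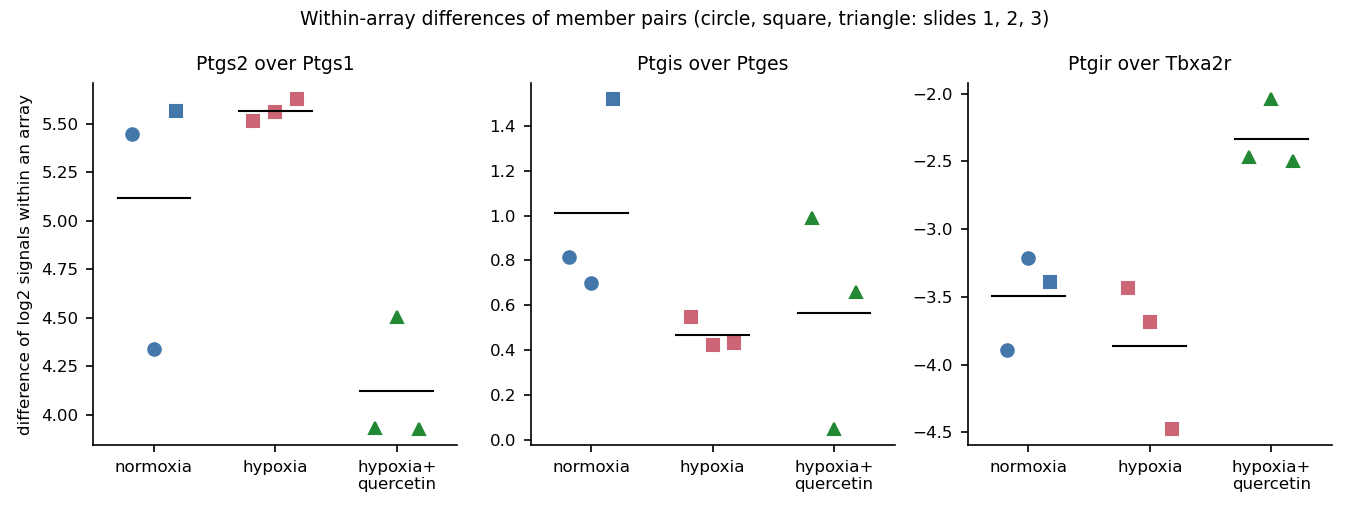
Difference of log2 signals of 2 members on the same array, by group (lines, means of 3 arrays; only changes between groups are readable, as the absolute value depends on the probes). The quercetin arrays lie apart from the hypoxia arrays for Ptgs2 over Ptgs1 and for Ptgir over Tbxa2r, and the groups overlap for Ptgis over Ptges with quercetin.

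The rest of the pathway was followed through 6 lists of 46 genes, of which 44 were on the array under these names and 32 were tested. In hypoxia 7 rose and 13 fell, with quercetin against hypoxia 10 rose and 10 fell, and with quercetin against normoxia 6 rose and 10 fell. Of those that fell in hypoxia, Hpgd, Ptgfr and Areg entered the test through normoxia alone, which favours a fall. The shares that passed, 62.5%, 62.5% and 50%, again lie near those of all genes.

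Arachidonate release, the step before the cyclooxygenases, had 10 genes on the array, of which 4 were too dim to test; of the 6 tested, 3 rose and 3 fell in hypoxia, where 64.2% of all genes passed. The secreted phospholipase Pla2g2a read 0.57, 1.74 and 0.15 in normoxia, -3.96, -4.04 and -3.51 in hypoxia and -3.68, -4.07 and -3.65 with quercetin. Its fall of -4.66 ± 0.37 (adjusted p = 1.96e-05) was seen on arrays that were all well above background, and the quercetin group did not differ detectably from hypoxia (0.03 ± 0.37, adjusted p = 0.943). Pla2g4a, the cytosolic phospholipase that supplies arachidonic acid, fell by 0.27 ± 0.09 in hypoxia (adjusted p = 0.0336) and by a further 0.57 with quercetin (adjusted p = 0.00114); the hypoxia call was lost in 6 of the 9 fits without 1 array (adjusted p up to 0.117). Mgll, monoacylglycerol lipase, rose by 1.23 in hypoxia and fell by 1.53 with quercetin, and its other probe by 2.46 and 2.75. The phospholipases Pla2g4b (1.96 and -0.81) and Pla2g6 (0.76 and -0.42) passed in the same directions, with the Pla2g4b call for quercetin lost in 6 of those 9 fits (adjusted p up to 0.0817), and the diacylglycerol lipase Daglb in the opposite ones (-1.06 and 1.30).

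Among the other synthases Ptges2, a second prostaglandin E synthase, moved opposite to Ptges. It read 1.25, 1.17 and 1.00 in normoxia, -0.59, -0.72 and -0.65 in hypoxia and 0.32, 0.55 and 0.50 with quercetin, with no overlap between groups. It fell by 1.79 ± 0.10 in hypoxia (adjusted p = 4.67e-06) and rose by 1.11 ± 0.10 with quercetin (adjusted p = 5.11e-05). Ptgds, prostaglandin D synthase, and Cbr1, a carbonyl reductase, fell with quercetin against hypoxia (-0.95 and -0.67, adjusted p = 0.00518 and 0.0454). The Ptgds value turned to 0.19 with normexp correction, and the Cbr1 call was lost in 7 of 9 fits without 1 array (adjusted p up to 0.113).

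Transport and breakdown had 4 of 5 genes lower in hypoxia, against 28.9% of all genes, with a median of -1.39 beside 0.10. The values of 2 of the 4, Hpgd and Abcc4, are limited by background. With normexp correction Slco2a1 and Hpgd no longer passed. Hpgd, the dehydrogenase that inactivates prostaglandins, was well above background in normoxia (-3.43, -2.49 and -4.08) and on no other array (-7.18 to -5.72). It was at least 2.7-fold lower in hypoxia and at least 3.51-fold lower with quercetin against normoxia. The adjusted p-values, 0.000696 and 0.00173, are for its differences without these bounds. Hpgd too entered the test through normoxia alone, which favours a fall. Abcc4, an exporter of prostaglandins and cyclic nucleotides, read -1.82, -2.24 and -2.21 in normoxia, -6.04, -6.27 and -5.91 in hypoxia, none well above background, and -3.61, -2.66 and -3.25 with quercetin. It was at least 6.39-fold lower in hypoxia and at least 3.02-fold higher again with quercetin. The adjusted p-values, 5.63e-06 and 2.83e-05, are for its differences without these bounds. The other Abcc4 probe changed by -1.92 and 1.34. Slco2a1, the prostaglandin uptake carrier, fell in both steps, by 0.53 and then by 1.67 (adjusted p = 0.0128 and 4.26e-05). Ptgr2, a reductase of prostaglandin metabolites, fell by 1.39 and rose by 1.24.

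Of the other receptors, Ptgfr, for prostaglandin F2 alpha, was at least 2-fold lower in hypoxia, where no array was well above background. Its adjusted p of 0.00132 is for the difference without that bound, and the probe had also entered the test through normoxia alone. With quercetin 2 of 3 arrays were well above background, and it was higher than in hypoxia (adjusted p = 0.0189), a call lost in 3 of 9 fits without 1 array (up to 0.0669). Ptgdr2, for prostaglandin D2, passed with quercetin against hypoxia (0.76, adjusted p = 0.0493, lost in 6 of 9 such fits, up to 0.144) and against normoxia (1.13, adjusted p = 0.0128). With normexp correction Slco2a1, Hpgd and Ptgfr passed in no comparison, and Ptgdr2 in none either.

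In the lipoxygenase branch, which makes leukotrienes from the same arachidonic acid, 3 of 9 genes were bright enough to test. Lta4h, leukotriene A4 hydrolase, rose by 0.81 in hypoxia and fell by 0.56 with quercetin. Alox15 passed with quercetin against hypoxia only, at -0.74 (adjusted p = 0.0113). Its probe was well above background on 1 of 3 quercetin and 2 of 3 hypoxia arrays, and the value turned positive with normexp correction.

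Genes that cyclic AMP induces, downstream of prostacyclin, EP2 and EP4, moved in both directions. In hypoxia Nr4a3 (1.21), Per1 (1.67) and Sik1 (1.94) rose, and Nr4a1 (-1.24), Fos (-1.85), Areg (-3.34) and Pde4d (-1.62) fell. With quercetin against hypoxia Nr4a1 (1.59), Nr4a2 (0.78), Fos (0.56) and Pde4d (0.68) rose and Per1 (-1.37) fell, with the Fos call lost in 3 of 9 fits without 1 array (adjusted p up to 0.0826). For Pde4d, a phosphodiesterase that degrades cyclic AMP, 1 of its 3 other probes went the other way with quercetin (-0.39, adjusted p = 0.0401). For Nr4a3, 1 other probe missed the threshold in hypoxia (0.75, adjusted p = 0.0987) and with quercetin (0.71, adjusted p = 0.121). Another rose in both (0.82 and 0.53, adjusted p = 0.00189 and 0.0177). Crem did not pass by its brightest probe. Its other probes changed by -1.41 (adjusted p = 0.0206) and 0.07 (adjusted p = 0.855) in hypoxia. The Areg probe was not well above background on hypoxia 3 or quercetin 1. It entered the test through normoxia alone, which favours a fall. The list's medians were -0.59 in hypoxia and 0.57 with quercetin, beside 0.10 and -0.08 over all genes.

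**Figure D4:**
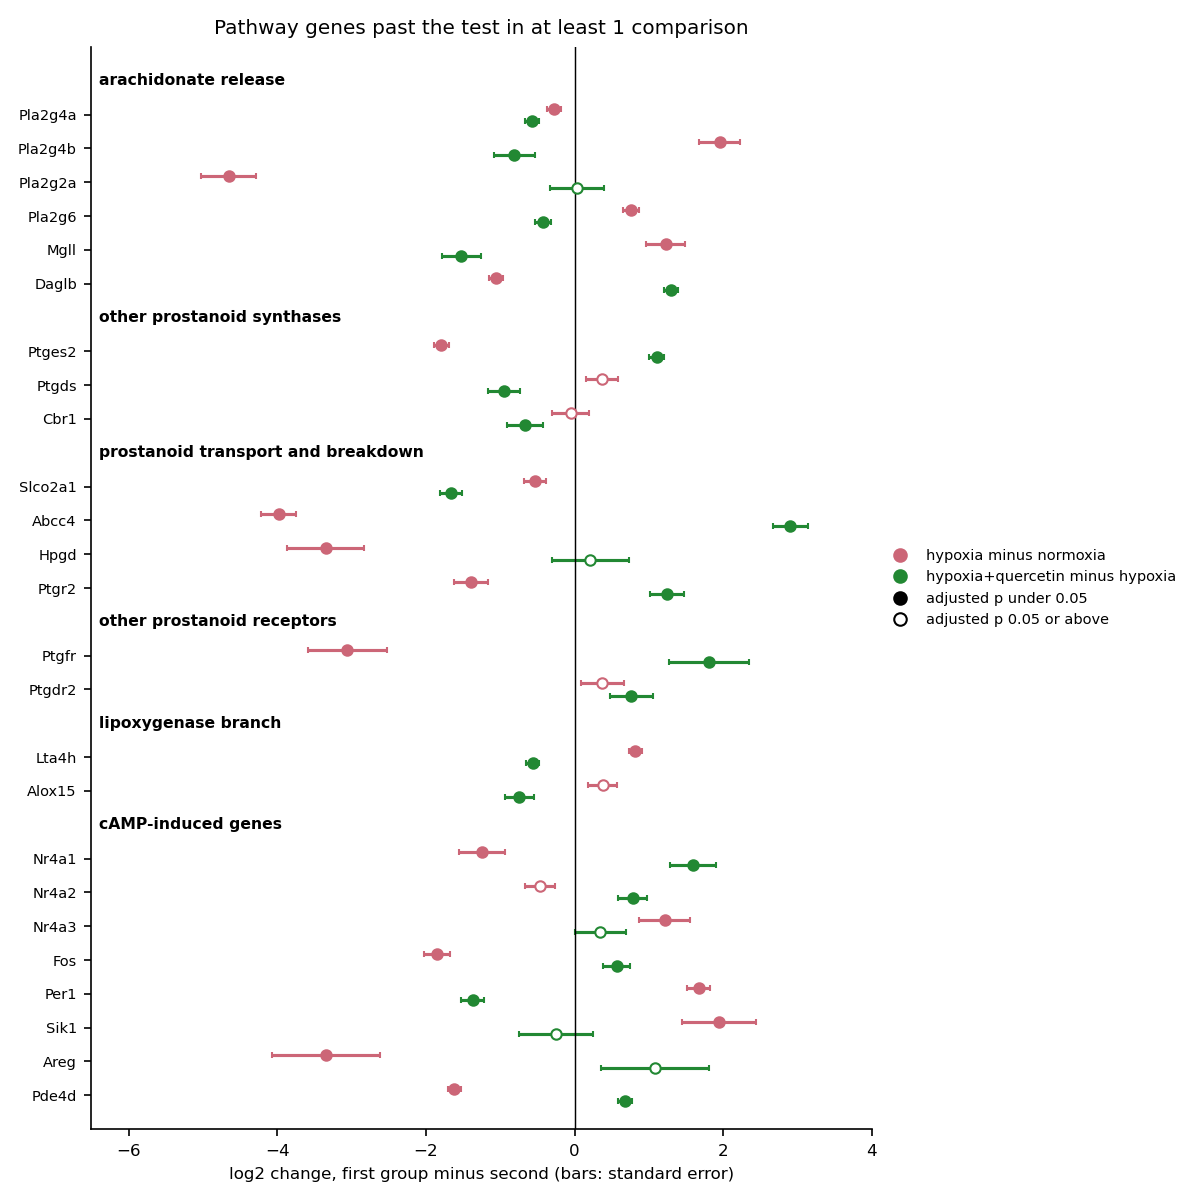
Log2 change ± standard error of the pathway genes that passed in at least 1 comparison, by list, for hypoxia minus normoxia and hypoxia+quercetin minus hypoxia (3 arrays per group; filled, adjusted p under 0.05). Pla2g2a, Abcc4, Hpgd, Areg and Ptgfr lie furthest to the left in hypoxia, and Abcc4 furthest to the right with quercetin. For the dim Abcc4, Hpgd and Ptgfr the position is no measure of size. Areg, like Hpgd and Ptgfr, entered the test through normoxia alone.

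Markers of cell types moved along with the members, and their part in these results was not tested. The summed linear signal of 9 smooth muscle genes, divided by the 75th percentile, ran from 169 to 296 for the normoxia arrays, from 379 to 401 for the hypoxia arrays and from 120 to 144 for the quercetin arrays, the order also seen in Ptgis and Tbxa2r. In hypoxia 5 of the 9 rose and none fell, against 35.3% and 28.9% of all genes, and with quercetin against hypoxia 7 fell and none rose, against 31.6% and 26.9%. The epithelial list, carried by Krt7, Krt8 and Krt18, summed to 3.69 to 5.42, 39.4 to 46.8 and 7.36 to 8.93, while Epcam, Cdh1 and Krt19 were well above background on 0 arrays. Krt18 rose by 4.93 in hypoxia and fell by 3.22 with quercetin. The endothelial list, of cells rich in Ptgis, summed to 0.0962 to 0.112, 0.134 to 0.16 and 0.0601 to 0.111. Its gene Cdh5 passed only with quercetin against hypoxia (-1.22, adjusted p = 0.00356), and Kdr passed in no comparison. Pecam1, Tek, Cldn5 and Tie1 were well above background on 0 arrays. The platelet list, of cells rich in Tbxas1 and Tbxa2r, summed to 8.62 to 14.5, 15.7 to 16.5 and 10.1 to 10.9, almost all from Gp1bb, with Pf4 and Ppbp well above background on 1 and 2 arrays. Leukocyte markers summed to 4.22 to 5.66, 3.66 to 3.98 and 2.69 to 2.8, and fibroblast markers to 842 to 898, 1200 to 1310 and 812 to 960. These sums follow their brightest probes and hide members that moved the other way. In hypoxia the fibroblast genes Col1a1 (0.73) and Col3a1 (0.53) rose while Dcn (-4.24), Lum (-3.62) and Fap (-1.45) fell. Dcn entered the test through normoxia alone, which favours a fall, and was not well above background on hypoxia 3. The leukocyte genes Lyz2 (4.10), Csf1r (0.70) and Cd74 (0.34) rose in hypoxia while Cd14 (-0.95) fell. Fewer cells of a type and less RNA per cell cannot be told apart in such bulk samples.

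The gene most like Ptgis across the 9 arrays was Cnn1, calponin, a smooth muscle contractile protein, at Pearson's r = 0.9991. Its 3 groups lay in the same order, with 1.33 in hypoxia and -2.50 with quercetin against hypoxia. Ddx25, Vps26b, Psmd8 and Igfbp6 followed, at r from 0.9986 to 0.9954. For Ptgs2 the 5 most alike were Rorb (0.9564), Cct8, Abi1, Eaf1 and Zyg11b, and for Ptgs1 they were Tgoln2 (0.9478), Aldh4a1, Chp1, Psmd13 and Bltp2. The 9 points fall into the 3 groups and share slides, and the genes were picked from all those with a symbol, so these values only describe.

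Promoters are shown for 2 members that rose in hypoxia and fell with quercetin, Ptges and Tbxa2r. They are also shown for Ptgs2 and Ptgs1, whose narrow calls with quercetin against hypoxia went in opposite directions. They are the 250 bases before the annotated start in RefSeq (assembly GRCr8), which held entries for 9 of the 10 members; Ptgis had none. Capitals mark matches, on either strand, to the motifs searched.
Ptges, chr3:34586988-34587237, minus strand: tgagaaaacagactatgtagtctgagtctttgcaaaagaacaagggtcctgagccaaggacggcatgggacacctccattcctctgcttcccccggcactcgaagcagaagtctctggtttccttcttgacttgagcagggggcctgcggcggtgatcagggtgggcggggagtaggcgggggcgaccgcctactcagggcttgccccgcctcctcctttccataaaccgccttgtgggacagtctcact
Tbxa2r, chr7:9038906-9039155, minus strand: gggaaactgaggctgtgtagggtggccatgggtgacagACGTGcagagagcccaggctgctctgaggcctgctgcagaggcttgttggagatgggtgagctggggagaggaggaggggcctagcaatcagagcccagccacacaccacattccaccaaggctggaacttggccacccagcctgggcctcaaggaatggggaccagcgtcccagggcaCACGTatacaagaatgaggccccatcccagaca
Ptgs2, chr13:64713813-64714062, plus strand: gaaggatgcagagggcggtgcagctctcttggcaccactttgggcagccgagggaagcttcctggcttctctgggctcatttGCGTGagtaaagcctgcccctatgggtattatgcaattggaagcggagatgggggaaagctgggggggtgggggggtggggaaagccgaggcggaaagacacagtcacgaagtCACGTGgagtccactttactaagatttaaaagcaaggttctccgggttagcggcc
Ptgs1, chr3:39981169-39981418, plus strand: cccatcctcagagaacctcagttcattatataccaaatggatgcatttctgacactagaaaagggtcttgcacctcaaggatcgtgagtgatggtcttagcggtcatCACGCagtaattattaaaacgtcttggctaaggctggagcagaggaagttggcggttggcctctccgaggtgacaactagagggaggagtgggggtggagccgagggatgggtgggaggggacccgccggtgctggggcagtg
The motifs were the hypoxia response element cores ACGTG and GCGTG, found in 16.6% and 25.9% of 33469 such windows, the cyclic AMP response element TGACGTCA (1.59%), the antioxidant response element core TGACNNNGC (10.1%), the TATA box TATAAA (12.9%), the E-box CACGTG (5.59%), the AP-1 sites TGAGTCA and TGACTCA (4.05% together) and the NF-kappaB site (3.54%). Tbxa2r held ACGTG at 212 bases before the start and on the other strand at 33. Ptgs2 held CACGTG at 55 bases before the start, which contains ACGTG on both strands, and GCGTG at 168. Ptgs1 held GCGTG on the minus strand at 143. The Ptges window held none of these letters. A match is a description of the letters, and none of these arrays measured binding.

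**Figure D5:**
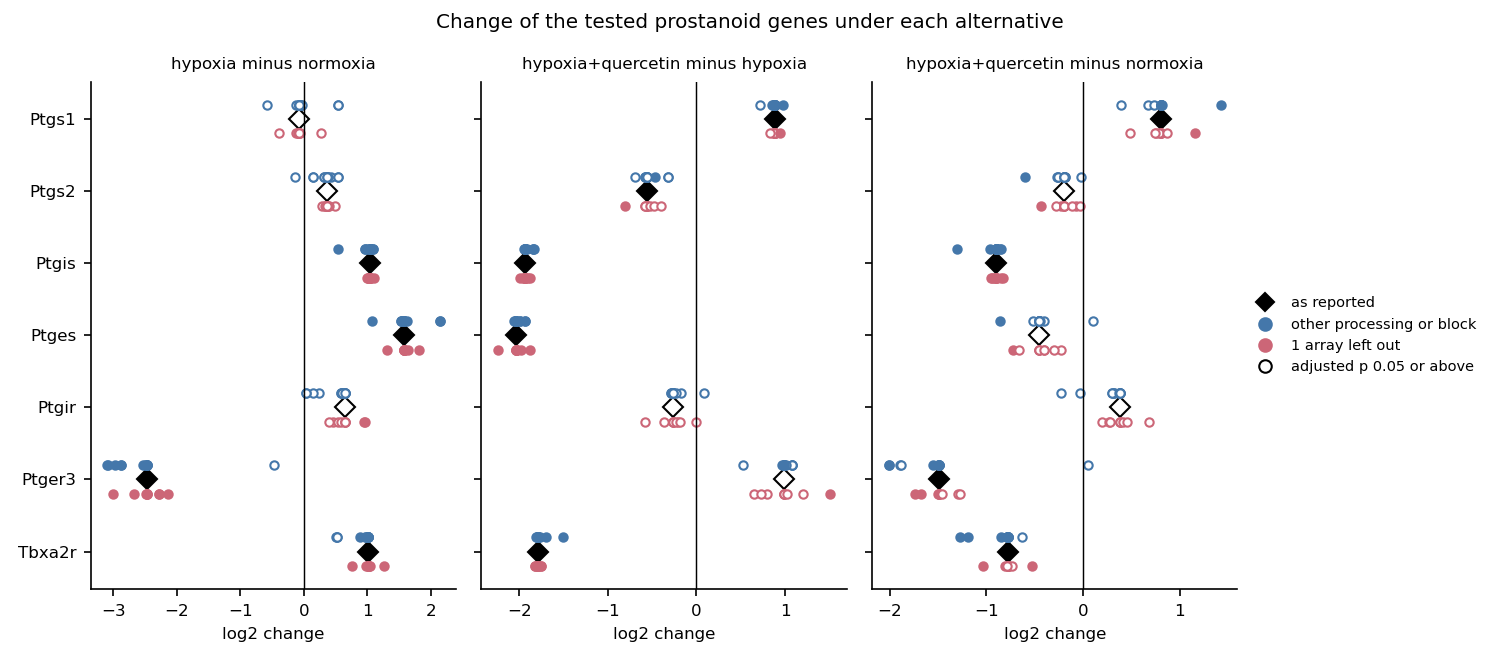
Log2 change of the 7 tested members as reported (diamonds), under other processing or blocks (blue) and with 1 array left out (red), filled where the adjusted p was under 0.05. Ptgis, Ptges and Tbxa2r stay left of 0 with filled symbols throughout in hypoxia+quercetin minus hypoxia, while Ptgs1 and Ptgs2 there turn open under several settings.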

How the data were processed

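Per the labels, total RNA of 9 PASMC samples was labelled with Cy3; they name a miRNA kit, while the scanner protocol is one for gene expression and the probes read messenger RNA, so the labelling is uncertain. Per the file headers, Feature Extraction 10.7.3.1 produced the deposited intensity values, background-subtracted and not scaled between arrays (design build rn4). The deposited value table holds log2 values; how they were made is unstated, and it served as an alternative.

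From the intensities, 1639 control spots and 71 to 148 flagged spots per array were left out, 0 spots were saturated, and log2 values had the array's 75th percentile subtracted (439.3 to 639.6 before logs). Of 41012 probes, 26653 (65%) passed the scanner's well-above-background flag on every array of 1 group or more. Names came from RefSeq (18028 by accession, 3168 by symbol, 400 by synonym) or the file (19416). Each gene's brightest kept probe gave 22106 genes, tested in limma 3.58.1 (R 4.3.3; lmFit, eBayes, all arrays, 6 residual and 2.3 prior degrees of freedom), two-sided, at an adjusted p of 0.05. The number of arrays limits the precision. In simulated data of 22106 genes, hypoxia against normoxia, 67, 67 and 66 genes were changed 1.5-, 2- and 4-fold. Of these 32.8%, 58.2% and 93.9% were recovered, with 10.2% of calls false. Far more genes passed in the real comparison (64.2%), so these shares do not carry over to it.

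All 10 members are named with all probes; pathway genes are named where they passed in at least 1 comparison; like genes are the top 5 by Pearson's r. Members and lists were chosen with earlier results of these data known. Alternatives were background correction (normexp, offset 50), scaling, filter, probe choice, samples fitted, slide, scan day and replicate blocks, and leaving out each array.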

Additional observations from a re-analysis of the deposited data

How the results depend on the processing

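The rises of Ptgis and Ptges in hypoxia and the falls of Ptgis, Ptges and Tbxa2r with quercetin against hypoxia passed in every alternative that could be fitted. With normexp background correction 6719, 6170 and 3176 of all genes passed (hypoxia against normoxia, quercetin against hypoxia, quercetin against normoxia), against 14194, 12915 and 9794 as reported. Of the members, 3 and 1 passed in the comparisons with quercetin, of the pathway genes 12 and 6, and 0 member pairs lay apart in quercetin against normoxia. That correction turned quercetin against hypoxia to 0.19 for Ptgds and 0.31 for Alox15, and Ptger3 in quercetin against normoxia to 0.0515, and the cause was not tested. Without the filter on dim probes 3 and 2 members passed in the quercetin comparisons, with more genes to adjust over. Requiring every array well above background left 1 and 0 pairs in these comparisons, as the Ptgir probe dropped out. Scan day as a block left 5818 genes in quercetin against normoxia. Scaling to spike-in RNA turned Pla2g6 to -0.0645 and Lta4h to -0.16 in quercetin against normoxia.

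Leaving out 1 array gave 3 to 5 members in quercetin against hypoxia and 1 to 4 in quercetin against normoxia, and 1 to 2 pairs lay apart when either hypoxia or quercetin was set against normoxia. Same-numbered samples did not deviate together (correlations from -0.267 to 0.0193). These correlations cannot tell whether same-numbered samples share a rat or culture, as slide and array scatter also enters them. With the replicate block 4, 5 and 4 members passed; Ptgs2 in quercetin against hypoxia lost its call (adjusted p = 0.0622) and Ptger3 gained one (adjusted p = 0.016). Signal over background limits Ptger2, Ptger3, Ptger4 and Tbxas1.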
